A study of Mus musculus with 28 samples.

Results

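The comparison described here set the 6 CKD-vehicle libraries against 6 of the 10 sham-vehicle libraries, those of mouse numbers 901 to 906, in RNA from ventricular myocardium. These are 12 of the 28 libraries of the series. Mice 901 to 906 were chosen by mouse number because their Dbp was lower and their Arntl higher than in sham mice 907 to 910, which placed them nearer to the CKD mice in circadian phase. The choice used measured clock transcripts, so clock genes are given below as a description with no test. Chronic kidney disease (CKD) had been induced by 5/6 nephrectomy, a surgical removal of most kidney tissue in stages, and the sham mice had an operation that left the kidneys in place. All were male C57BL/6 adults operated on at 6 weeks of age, all ate chow with added hydroxyproline (1%) and calcium (0.5%), and all of these groups received 200 µl of plain culture medium by gavage on day 7. The model is therefore one of renal mass reduction under a diet rich in an oxalate precursor, which the controls ate too. Other mice of the series received the bacterium Oxf by gavage, and their 5 sham and 7 CKD libraries enter only 1 alternative fit. The design describes 10 mice per group, and why 6 CKD-vehicle libraries are at hand is not given in the sources used here. Each mouse gave 1 library, and the 6 CKD mice carry the numbers 913, 914, 916, 918, 919 and 920.

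Natriuretic peptides are hormones made by heart muscle under stretch. The ventricle is the main source of B-type peptide (Nppb) under load, while most A-type peptide (Nppa) comes from the atria. Both are cut from precursors by proteases, act through guanylyl cyclase receptors that raise cGMP, and are cleared by a receptor without cyclase activity and by neprilysin. Nppb, Nppa, skeletal alpha-actin (Acta1) and beta-myosin (Myh7) belong to the fetal programme that hypertrophied ventricles are known to re-express. The heart also runs its own circadian clock. In this clock Arntl and Clock drive the Per and Cry repressors and output factors such as Dbp. The transcripts of Arntl and Dbp peak at opposite phases, and many cardiac transcripts, ion channels among them, vary with the time of day.

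Nppb and Nppa stand next to each other on mouse chromosome 4. The 250 bases before each RefSeq start (build GRCm38.p6, plus strand) are shown because the report turns on these 2 transcripts. Capitals mark GATAA or its reverse complement TTATC, a core that GATA factors can bind.
Nppb, chr4:147985650-147985899: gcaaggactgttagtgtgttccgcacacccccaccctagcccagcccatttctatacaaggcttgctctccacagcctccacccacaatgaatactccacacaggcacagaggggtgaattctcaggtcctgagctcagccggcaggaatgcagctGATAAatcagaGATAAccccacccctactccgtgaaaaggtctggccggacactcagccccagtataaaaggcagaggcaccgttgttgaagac
Nppa, chr4:148000472-148000721: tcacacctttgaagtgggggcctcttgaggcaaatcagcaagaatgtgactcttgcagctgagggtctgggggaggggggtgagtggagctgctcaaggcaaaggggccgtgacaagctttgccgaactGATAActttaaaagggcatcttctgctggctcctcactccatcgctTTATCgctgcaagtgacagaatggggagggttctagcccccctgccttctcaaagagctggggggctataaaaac
Each window held 2 GATAA matches on either strand, with first bases 94 and 83 before the start in Nppb and 121 and 75 before it in Nppa. At least 1 such match stood in 22.6% of 32851 promoter windows of this length. The letters CACGTG, the E-box core that clock activators can bind, were in neither window and in 6.02% of all windows. In the gene annotation (GENCODE M21, GRCm38) Nppb spans 147985788 to 147987205, which overlaps the end of its RefSeq window, and Nppa spans 148000722 to 148002079.

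Total counts, in units of M (mega), were 38.3 ± 9.25 M in the sham libraries (SD, n = 6, range 22.3 to 48.0) and 48.0 ± 10.5 M in the CKD libraries (SD, n = 6, range 34.3 to 65.4). The mean difference in log2 total counts was 0.34, with p = 0.136 in an exact two-sided permutation test and 0.341 adjusted over 5 such tests, whose smallest possible p is 0.00216. The 7SL RNA copies took 2.30% to 19.9% of counts in the sham and 2.26% to 21.0% in the CKD libraries. Ventricular markers were abundant in every library, with summed levels of 15425 to 29300 CPM (TMM-scaled counts, set to a common library size) in the sham and 26690 to 40564 in the CKD mice, and none of the 7 was at 0 in all libraries of a group. Atrial markers were also present, at 144 to 1737 CPM in the sham and 743 to 1839 in the CKD mice. Skeletal muscle markers stood at 589 CPM in sham mouse 906 and 702 in CKD mouse 913, against 3.29 to 8.84 in the other libraries, so the main muscle genes are also given without these 2 mice. In bulk tissue, fewer cells of a type and less RNA per cell cannot be told apart.

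The phase of the 2 groups was nearer but not the same. Dbp, an output factor of the clock, was at 26.0, 22.6, 33.7, 27.5, 36.3 and 56.0 CPM in sham mice 901 to 906, in order. In the CKD mice it was at 7.73, 8.09, 15.3, 25.0, 41.4 and 29.5 CPM. Mice 913, 914 and 916 thus lay below every one of the 6 sham mice, while 918, 919 and 920 lay inside their range. The 4 sham mice left out, 907 to 910, had 58.6, 72.9, 91.6 and 71.6 CPM. Just inside the limit of the choice, mouse 906 had Dbp at 56.0 and Arntl at 14.9 CPM, and just outside it mouse 907 had 58.6 and 8.72 CPM. Arntl, the activator that peaks opposite to Dbp, was at 26.2, 24.4, 15.2, 16.8, 10.3 and 14.9 CPM in sham mice 901 to 906. Its levels in the CKD mice were 35.8, 27.5, 21.3, 19.7, 18.1 and 18.3 CPM, and in sham mice 907 to 910 they were 8.72, 6.36, 3.52 and 4.35 CPM. The repressor Per2 overlapped widely, at 11.9 to 47.1 CPM in the 6 sham mice and 6.84 to 63.4 CPM in the CKD mice.

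**Figure D1:**
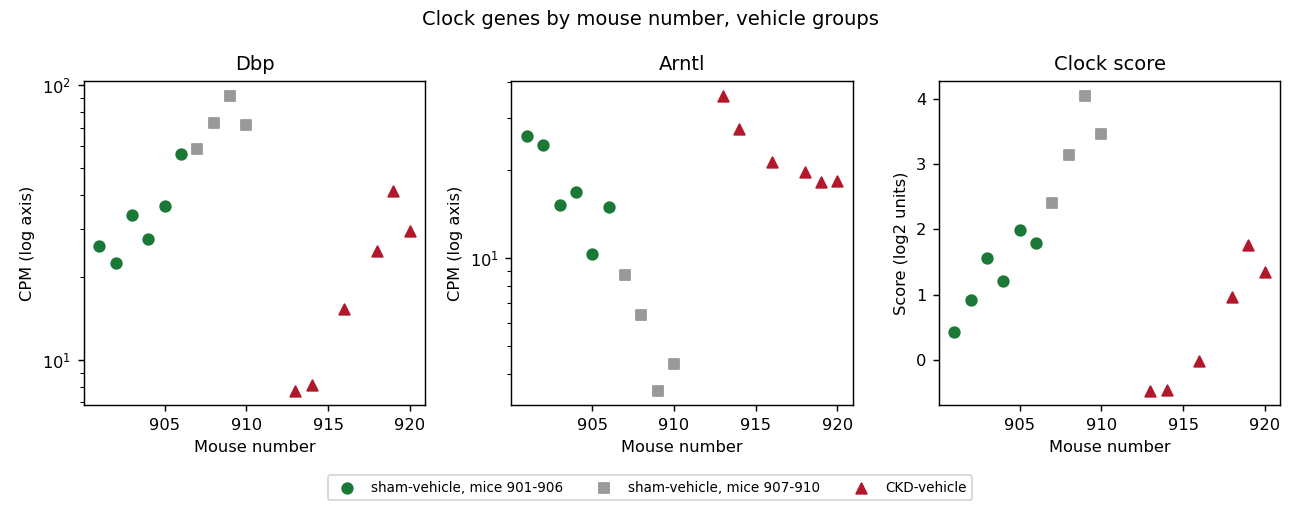
Dbp and Arntl in CPM on log axes and a clock score in log2 units, plotted by mouse number for the vehicle groups (1 point per library). The score is the mean log2 CPM of 10 repressor and output genes minus that of Arntl, Npas2, Clock and Nfil3. For Dbp and the score, CKD mice 913, 914 and 916 lie below all sham mice, and sham mice 907 to 910 lie above all others. For Arntl, sham mice 907 to 910 lie below all others.

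A clock score summed up 14 of these genes, as the mean log2 CPM of 10 repressor and output genes minus the mean of Arntl, Npas2, Clock and Nfil3. It was 1.32 ± 0.579 (SD, n = 6) in sham mice 901 to 906, 0.522 ± 0.963 (SD, n = 6) in the CKD mice and 3.26 ± 0.684 (SD, n = 4) in sham mice 907 to 910. The fitted log2 difference of CKD from sham 901 to 906 was -0.67 ± 0.35 (SE) for Dbp and 0.39 ± 0.25 for Arntl. Against sham 907 to 910 the same differences were -1.80 ± 0.39 and 2.03 ± 0.31. Over the 24 clock genes the median absolute log2 difference was 0.269 against mice 901 to 906 and 0.760 against mice 907 to 910, where the medians over all genes were 0.176 and 0.208. The difference was smaller against mice 901 to 906 for 23 of the 24, which the choice of the sham mice favours. Nfil3, which the score counts with Arntl, still had a log2 difference of 0.62 ± 0.23. Its highest levels, 9.08 and 11.3 CPM, were in CKD mice 913 and 914.

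Against these 6 sham mice no gene passed the threshold. The test was edgeR's quasi-likelihood F test on the counts with Benjamini-Hochberg adjustment over 24012 genes, in a fit that also held sham mice 907 to 910 as a group of their own. At an adjusted p under 0.05 it called 0 genes (0%), and the smallest adjusted p was 0.229. At an unadjusted p under 0.05 it had 1384 genes (5.76%), of which 516 (2.15%) were higher and 868 (3.61%) lower in CKD. In 43 genes (0.179%) all 6 CKD libraries lay above all 6 sham libraries, and in 42 (0.175%) they lay below. The DESeq2 Wald test on the same 16 libraries called 44 genes (0.183%), 10 higher and 34 lower in CKD. These held 17 Mup genes, 9 Serpina, Mug and Fgb transcripts and 2 amylase genes, but no natriuretic, hypertrophy or clock list gene. With sham mice 907 to 910 in place of 901 to 906, the edgeR fit called 29 genes (0.121%), of which 16 were Mup genes and 5 Serpina genes. Another 3 were clock list genes, Arntl, Hlf and Nfil3. The split of the sham mice by Dbp and Arntl favours such calls, so nothing is read from these 3. With the 7SL share of each library as a covariate, edgeR called 1 gene (0.00416%) against mice 901 to 906, the endothelial claudin Cldn5, which was lower in CKD. Values below come from the edgeR fit against mice 901 to 906 unless another is named.

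Among the ligands, Nppb was at 26.3, 7.86, 23.2, 30.8, 53.6 and 6.16 CPM in sham mice 901 to 906. In the CKD mice it was at 54.8, 80.3, 63.9, 37.1, 22.0 and 31.0 CPM. CKD mice 913, 914 and 916 lay above every sham mouse, and 918, 919 and 920 lay inside the sham range. The mean was 48.2 ± 22.0 CPM in CKD and 24.7 ± 17.4 CPM in sham (SD, n = 6 each). Nppb had a log2 difference of 0.97 ± 0.46 (SE) and did not pass (edgeR unadjusted p = 0.0525, adjusted p = 0.853). An exact two-sided permutation test on its log2 CPM gave p = 0.0606, and 0.303 adjusted over the 5 tests, with 5 of 6 CKD mice above the sham median. Sham mice 907 to 910 had 38.1, 19.8, 10.1 and 15.9 CPM, and against them the log2 difference was 1.20 ± 0.53.

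The CKD mice with the most Nppb were those with the least Dbp. Mice 913, 914 and 916 had both the 3 highest levels of Nppb and the 3 lowest of Dbp among the CKD mice. The plot of Nppb against Dbp shows this. These 3 also carry the lowest mouse numbers of the CKD mice. The sham mice did not follow the same order. From lowest to highest Dbp, sham mice 902, 901, 904, 903, 905 and 906 had Nppb at 7.86, 26.3, 30.8, 23.2, 53.6 and 6.16 CPM. A link between Nppb and Dbp within the groups was not tested. With the clock score as a covariate, the log2 difference of Nppb between CKD and sham 901 to 906 was 0.37 ± 0.52 (edgeR unadjusted p = 0.489, adjusted p = 0.983). Without sham mouse 906 and CKD mouse 913 it was 0.72 ± 0.46. Over all alternatives tried, it ran from 0.37 to 1.35 and did not pass in any of them. How much of the Nppb difference is phase and how much surgery cannot be told apart in these mice, since 3 of the 6 CKD mice lie outside the phase range of the sham mice. Mice 913, 914 and 916 also had the highest atrial marker sums of the CKD mice, 1839, 1535 and 1702 CPM. The others had 743 to 1425 CPM. Sham mouse 905 had 1647 CPM with Nppb at 53.6 CPM, and sham mouse 901 had 1737 CPM with Nppb at 26.3 CPM. The part of atrial tissue in the Nppb values was not tested.

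**Figure D2:**
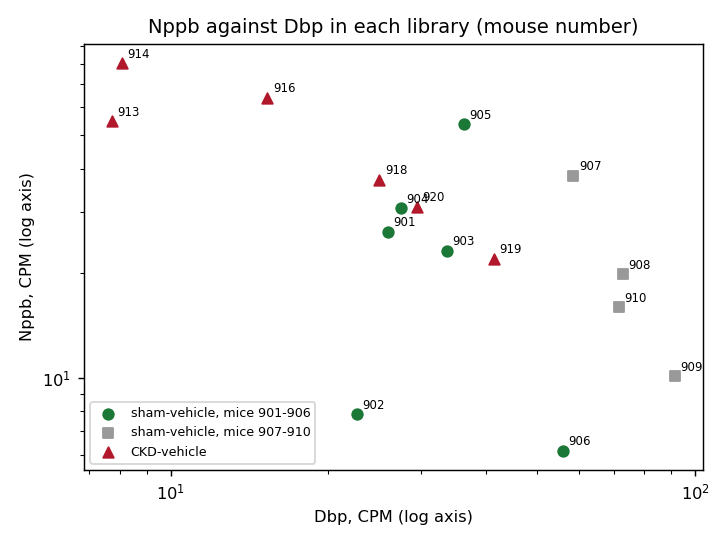
Nppb against Dbp in each vehicle library, in CPM on log axes, with the mouse number beside each point. CKD mice 913, 914 and 916 combine Dbp of 7.73 to 15.3 CPM with Nppb of 54.8 to 80.3 CPM, and the other 3 CKD mice lie among the sham points.

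Nppa, the A-type ligand, varied more between mice than between groups. It was at 1197, 556, 94.9, 279, 617 and 518 CPM in sham mice 901 to 906 and at 897, 1164, 746, 402, 732 and 498 CPM in the CKD mice, and all CKD values lay inside the sham range. Its log2 difference was 0.44 ± 0.46 (edgeR adjusted p = 0.855), and the exact permutation test gave p = 0.236. With the clock score as a covariate it was 0.03 ± 0.42. It was 0.83 without sham mouse 901, 0.22 without sham mouse 903 and 0.27 without CKD mouse 914. The lowest Nppa, in sham mouse 903, came with the lowest sum of atrial markers, 144 CPM, and sham mouse 901, with the highest Nppa, had 1737 CPM of them. The part of atrial tissue in the Nppa values was not tested. Nppc, the C-type ligand, had at most 4 counts in any vehicle library and was not tested.

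Of the proteases, Corin, the membrane enzyme that cuts the A-type precursor, had the smallest p of the pathway. Corin was at 157, 167, 134, 159.9, 239 and 148 CPM in sham mice 901 to 906, and at 220.0, 288, 240.5, 205, 219.8 and 226 CPM in the CKD mice. Only sham mouse 905 reached into the CKD range. The log2 difference was 0.48 ± 0.15 (edgeR unadjusted p = 0.00647, adjusted p = 0.816), 0.44 ± 0.17 with the clock score as a covariate, and 0.29 ± 0.17 against sham mice 907 to 910. Furin, which cuts the B-type precursor, had 0.11 ± 0.10 and Pcsk6, a protease of the same family, -0.19 ± 0.11.

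None of the receptors, nor of the steps after them, passed. Npr1, the cyclase receptor for the A and B types, was at 40.5 to 57.7 CPM in the 6 sham and 32.2 to 51.5 CPM in the CKD mice, with a log2 difference of -0.28 ± 0.13 (edgeR adjusted p = 0.853). It was -0.17 ± 0.18 for Npr2, the C-type receptor, and 0.50 ± 0.35 for the clearance receptor Npr3, which was 0.80 without sham mouse 905. The degrading enzyme neprilysin (Mme) had -0.21 ± 0.17 and the cGMP phosphodiesterase Pde5a -0.18 ± 0.14. For the cGMP-dependent kinase Prkg1 it was 0.00 ± 0.11, with a sign that changed between scalings. Of 12 listed genes 11 were tested, and 1 (Corin) had an unadjusted p under 0.05, higher in CKD, where 2.15% of all genes did. The differences were above 0 for 6 and below 0 for 5, with a median of 0.00 against -0.01 over all genes.

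**Figure D3:**
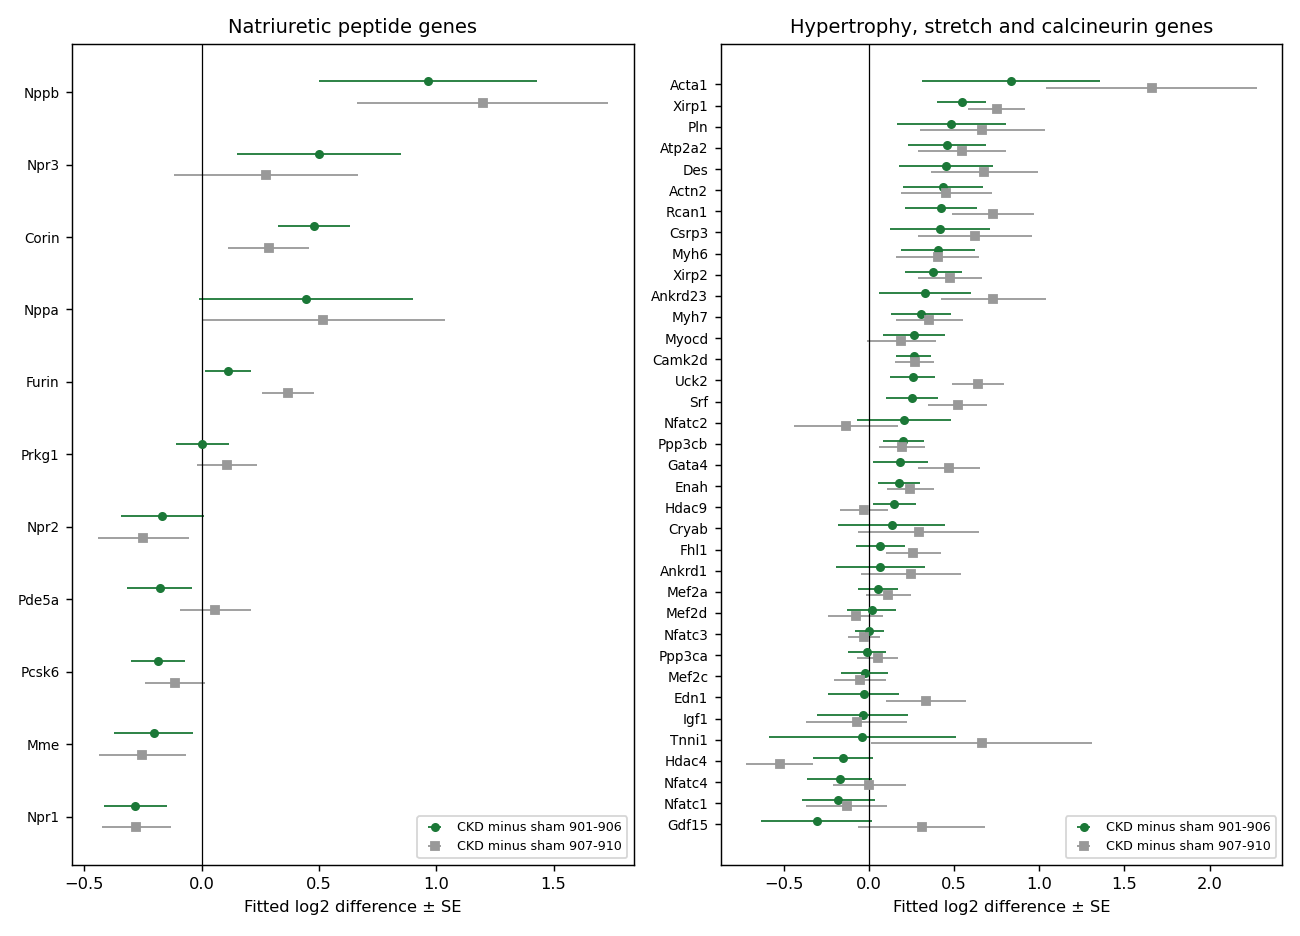
Fitted log2 differences ± SE of CKD from sham mice 901 to 906 (circles) and from sham mice 907 to 910 (squares), which share the CKD libraries, for the natriuretic (left) and hypertrophy (right) lists. Nppb on the left and Acta1 on the right have the largest differences from mice 901 to 906, and no gene passed the adjusted threshold against mice 901 to 906.

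The hypertrophy, stretch and calcineurin list had mostly positive differences in CKD, and none of its genes passed. All 36 genes were tested. Of these, 27 were above and 9 below 0, where over all genes 11669 were above and 12343 below. The median log2 difference was 0.19 against mice 901 to 906 and 0.30 against mice 907 to 910. An unadjusted p under 0.05 was reached by 3, all higher in CKD: Xirp1, Xirp2 and Camk2d, where 2.15% of all genes did. The summed ventricular markers, which share Myh6 with this list, had a median of 28518 CPM in CKD and 24233 CPM in sham mice 901 to 906. Myh6 made up most of each sum. Over the 7 markers the median log2 difference from mice 901 to 906 was 0.38, and the part of ventricular muscle in the values of this list was not tested.

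Xirp1, an actin-binding protein of the intercalated disc, was the only gene of this list whose groups did not overlap. It was at 93.8, 98.9, 127, 140.2, 136 and 137 CPM in sham mice 901 to 906 and at 180.2, 245, 152, 159, 169.6 and 163 CPM in the CKD mice. Sham mice 907 to 910, at 92.5 to 121 CPM, were also below every CKD mouse. The log2 difference was 0.54 ± 0.15 (edgeR unadjusted p = 0.0016, adjusted p = 0.644), and 0.52 ± 0.17 with the clock score as a covariate. Without sham mouse 906 and CKD mouse 913 it was 0.57 ± 0.17. Its annotated span overlaps that of Cx3cr1 on the same strand. Xirp2, its paralog, had 0.38 ± 0.17 (edgeR unadjusted p = 0.036), with 257 to 403 CPM in sham 901 to 906 and 351 to 530 in CKD. Camk2d, a calcium-dependent kinase of heart muscle, had 0.26 ± 0.10 (edgeR unadjusted p = 0.0181), with 97.1 to 133 CPM in sham 901 to 906 and 131 to 161 CPM in CKD. Without sham mouse 906 and CKD mouse 913, Xirp2 had 0.44 ± 0.19 and Camk2d 0.27 ± 0.12.

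Of the sarcomere genes, alpha-myosin (Myh6) had a log2 difference of 0.41 ± 0.22 and beta-myosin (Myh7) 0.31 ± 0.17 (edgeR adjusted p = 0.853 for both), so both myosins had positive differences. Without sham mouse 906 and CKD mouse 913 these were 0.42 ± 0.26 and 0.34 ± 0.20. Myh7 was at 824 to 1565 CPM in sham 901 to 906 and 1356 to 1826 CPM in CKD. Acta1, the skeletal alpha-actin of the fetal programme, was at 16.8, 18.4, 44.3, 66.2, 44.0 and 145 CPM in sham 901 to 906 and at 122, 240.1, 40.3, 89.6, 45.3 and 59.5 CPM in CKD. Its log2 difference was 0.83 ± 0.52 (edgeR adjusted p = 0.853). The sham mouse with the highest Acta1, 906, and CKD mouse 913 are those with skeletal muscle markers. Without both, the difference was 1.32 ± 0.52 (edgeR unadjusted p = 0.0213, adjusted p = 0.999). With the clock score as a covariate it was 0.30 ± 0.66. One library also moved it: it was 1.39 ± 0.49 without sham mouse 906 and 0.35 ± 0.49 without CKD mouse 914, which had the highest Acta1.

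The stretch-responsive repeat protein Ankrd1 had a log2 difference of 0.07 ± 0.26, whose sign changed in several alternatives. Rcan1, a calcineurin target, was at 13.0 to 21.6 CPM in sham 901 to 906 and 14.8 to 33.4 CPM in CKD. Its difference was 0.42 ± 0.21, 0.11 ± 0.21 with the clock score as a covariate and 0.26 ± 0.20 without CKD mouse 914. The slow skeletal troponin Tnni1 stayed under 1 CPM in every library, with a difference of -0.04 ± 0.55. No natriuretic or hypertrophy gene passed in any alternative, in edgeR, limma or DESeq2.

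**Figure D4:**
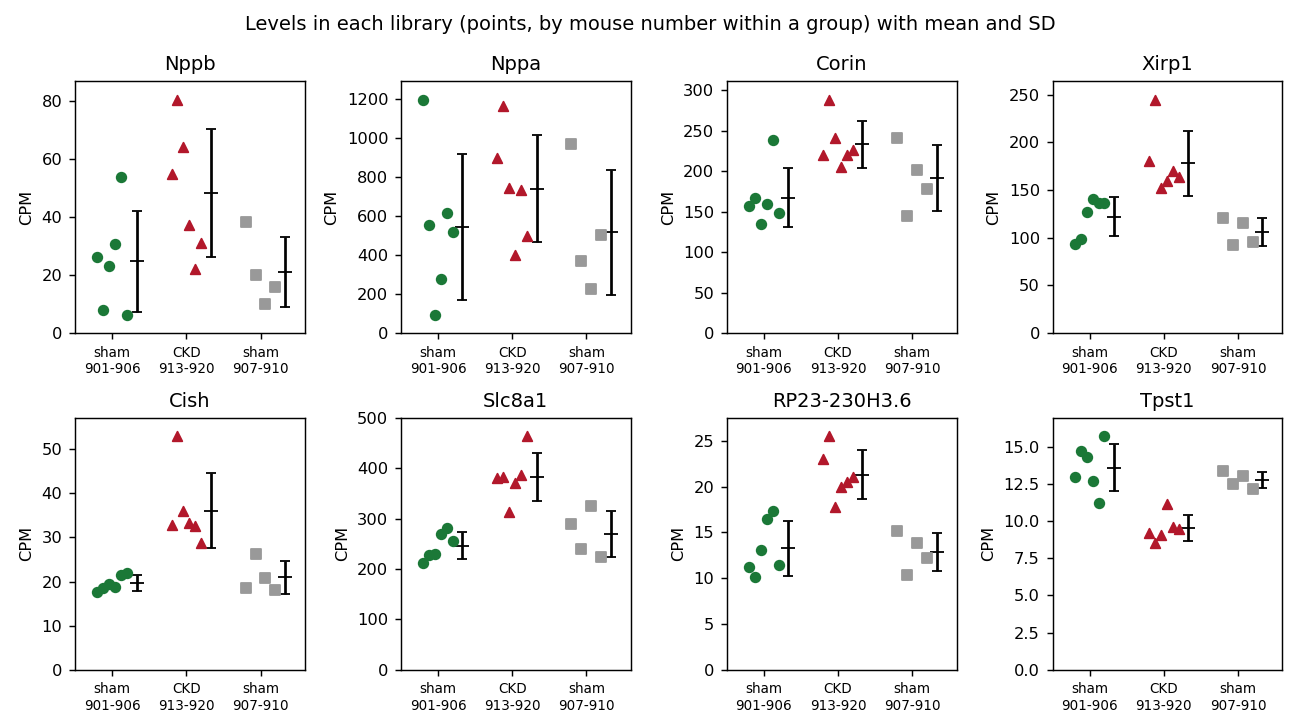
CPM of 8 genes in each vehicle library, with the mean and SD beside the points (n = 6, 6 and 4). Nppb, Nppa and Corin overlap between CKD and sham mice 901 to 906, while for Xirp1, Cish, Slc8a1, RP23-230H3.6 and Tpst1 the groups do not overlap.

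The smallest p of the comparison was that of Cish, a STAT5 target that dampens cytokine and growth hormone signalling (chromosome 9, 107296026 to 107302784, plus strand). Cish was at 17.7, 18.4, 19.5, 18.9, 21.5 and 22.0 CPM in sham mice 901 to 906 and at 32.9, 52.9, 36.0, 33.2, 32.6 and 28.8 CPM in the CKD mice. Every CKD mouse was above every sham mouse, those of 907 to 910 (18.1 to 26.2 CPM) included. The log2 difference was 0.88 ± 0.14 (edgeR unadjusted p = 9.54e-06, adjusted p = 0.229), and 0.79 ± 0.16 against sham mice 907 to 910. It ran from 0.73 to 0.95 over the alternatives, with adjusted p from 0.000278 to 0.831, and passed in 2 of them: DESeq2 (adjusted p = 0.000278) and edgeR with all 10 sham mice (adjusted p = 0.0383), where it was the 1 gene called (0.00437%). Its span overlaps 2 genes of the other strand. Of the 12 genes of growth hormone and STAT5 signalling, 10 differences were above 0, with a median of 0.18. Over all 24012 genes 11669 were above 0, with a median of -0.01, and 2.15% were higher in CKD at an unadjusted p under 0.05. Besides Cish, Socs2, another STAT5-induced suppressor, had an unadjusted p under 0.05, at 0.35 ± 0.12 (edgeR adjusted p = 0.845), and ranged from 27.6 to 44.1 CPM in sham 901 to 906 and 38.6 to 49.0 in CKD.

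Slc8a1, the sodium-calcium exchanger of the cardiomyocyte membrane (chromosome 17, 81373105 to 81738377, minus strand), also did not overlap. It was at 211, 228, 230.1, 270.1, 281 and 255 CPM in sham 901 to 906 and at 380.4, 383, 312, 370.1, 387 and 463 CPM in CKD. The log2 difference was 0.64 ± 0.13 (edgeR unadjusted p = 0.000133, adjusted p = 0.352), and 0.73 ± 0.14 with the clock score as a covariate. It passed with DESeq2 alone (adjusted p = 0.000394). Sham mouse 909, at 325 CPM, reached the CKD range. RP23-230H3.6, an antisense transcript on chromosome 2 (114054335 to 114064868, plus strand) that overlaps A530058N18Rik on the same strand, was at 10.1 to 17.4 CPM in sham 901 to 906 and 17.7 to 25.5 CPM in CKD. Its difference was 0.68 ± 0.15 (edgeR adjusted p = 0.352, DESeq2 adjusted p = 0.0106).

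In the other direction, Tpst1, a tyrosylprotein sulfotransferase of the Golgi (chromosome 5, 130073326 to 130135729, plus strand), was at 13.0, 14.7, 14.3, 12.7, 11.2 and 15.7 CPM in sham 901 to 906. It was at 9.20, 8.54, 9.08, 11.1, 9.61 and 9.45 CPM in CKD, below every sham mouse, with a log2 difference of -0.52 ± 0.10 (edgeR unadjusted p = 7.32e-05, adjusted p = 0.352, DESeq2 adjusted p = 0.000278). Nrarp, a Notch target that limits Notch signalling, had -0.97 ± 0.21 and Fam102a -0.80 ± 0.18 (edgeR adjusted p = 0.352 for both), and both overlapped. DESeq2 gave them adjusted p-values of 0.00902 and 0.0124.

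Several ion channel and calcium handling genes had positive differences in CKD. Of 15 tested, 5 had an unadjusted p under 0.05, all higher in CKD, where 2.15% of all genes did, and none passed the adjusted threshold. Besides Slc8a1 these were Kcnk3, a background potassium channel (0.56 ± 0.23), Kcnip2, the subunit of the transient outward current (0.54 ± 0.22), Kcnj2, an inward rectifier (0.47 ± 0.21), and Ryr2, the sarcoplasmic calcium release channel (0.38 ± 0.16). The median log2 difference was 0.30. It was 0.38 over the 7 ventricular markers, which share Ryr2 with this list, and the part of ventricular muscle in these values was not tested. Against sham mice 907 to 910, Kcnip2 had -0.06 ± 0.24, so its value depended on which sham mice were used, whereas Kcnk3 had 0.75 ± 0.26.

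Most fibrosis genes had negative differences against mice 901 to 906. Of 25 tested, 22 were below 0, with a median of -0.24, where 12343 of all 24012 genes were below 0. With sham mice 907 to 910 the median was 0.09, and the difference between the 2 sets of sham mice was not tested. An unadjusted p under 0.05, lower in CKD, was reached by 6, where 3.61% of all genes did. The growth factor Tgfb1 was at 18.9 to 31.9 CPM in sham 901 to 906 and 17.0 to 20.3 CPM in CKD, with -0.43 ± 0.12 (edgeR adjusted p = 0.697). The matrix genes thrombospondin 4 (Thbs4), Cilp, periostin (Postn) and fibronectin (Fn1) had -0.94 ± 0.31, -1.02 ± 0.37, -0.72 ± 0.33 and -0.54 ± 0.24, and Tgfb3 had -0.32 ± 0.14. Against sham mice 907 to 910, Cilp had 0.07 ± 0.41 and Tgfb3 0.01 ± 0.16, so their values depended on which sham mice were used. There Fn1 had -0.53 ± 0.26, Thbs4 -0.48 ± 0.34, Postn -0.37 ± 0.36 and Tgfb1 -0.20 ± 0.13. Valve and cartilage markers, which share Comp with this list, ranged from 20.6 to 55.3 CPM in sham 901 to 906 and 13.8 to 39.8 CPM in CKD. Endothelial markers ranged from 649 to 1091 and from 554 to 781 CPM. The part of either tissue in the fibrosis values was not tested.

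Of 16 fatty acid oxidation genes 13 were above 0, with a median of 0.26. Over all 24012 genes 11669 were above 0, with a median of -0.01, and the ventricular markers had a median of 0.38. The part of ventricular muscle in these values was not tested. An unadjusted p under 0.05 was reached by 1 of the 16, higher in CKD, where 2.15% of all genes did. The coactivator Ppargc1a had the smallest p, with a log2 difference of 0.55 ± 0.19 (edgeR adjusted p = 0.816). It was at 53.5 to 105 CPM in sham 901 to 906 and 82.7 to 146 CPM in CKD. Against sham mice 907 to 910 Ppargc1a had 0.16 ± 0.21, so its value depended on which sham mice were used. The median of the 16 genes was 0.52 there. Cpt1a, the carnitine transferase that admits fatty acids to mitochondria, had -0.22 ± 0.12 against mice 901 to 906. The renin-angiotensin and adrenergic list had 9 genes tested and 1 at an unadjusted p under 0.05, Ace, which makes angiotensin II (-0.34 ± 0.11), where 3.61% of all genes were lower at that p. Among 15 oxidative stress genes the single one was also lower, Hmox1, which degrades haem (-0.57 ± 0.19), and the superoxide source Nox4 had -0.64 ± 0.44. No gene reached that p among the 14 inflammation genes (median 0.08), the 12 FGF and klotho genes (-0.03), the 10 glucocorticoid-induced genes (0.26) or the 10 immediate-early genes (0.36). The members with the smallest p in these 4 lists included Tnf (-0.43 ± 0.31) and S100a9 (0.96 ± 0.73), Slc20a2 (0.29 ± 0.14) and Fgfr4 (-0.66 ± 0.33), Mt1 (0.28 ± 0.17) and Cdkn1a (0.47 ± 0.31), and Egr2 (0.52 ± 0.33) and Fos (0.78 ± 0.54). Fos was 0.19 without CKD mouse 913.

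Transcripts of the liver were at low levels in all libraries, with lower Mup sums in the CKD mice. The Mup genes, which encode urinary proteins made by the liver under growth hormone control, summed to 1.94, 4.11, 10.2, 14.3, 19.6 and 6.87 CPM in sham mice 901 to 906. They summed to 0.177, 0.389, 1.41, 0.235, 0.134 and 0.297 CPM in the CKD mice, so the groups did not overlap. Of 21 Mup genes in the table, 17 passed the filter on low counts. They did so through the sham libraries, where they are higher, so a lower value in CKD was favoured by the filter and nothing is read from their number. None of them passed in edgeR. These genes are near-identical copies, so 17 rows do not make 17 measurements, in the DESeq2 calls too. None of the 6 liver markers (Alb, Apoa1, Apoa2, Ttr, Fgb and Serpina3k) passed in edgeR, and as they too are higher in the sham libraries, their number at a lower threshold is not read. Alb, serum albumin, the most abundant of them, had a mean of 0.622 CPM in CKD and 3.23 CPM in sham 901 to 906 (log2 difference -2.41 ± 0.67, edgeR adjusted p = 0.681). The summed liver markers were 0.764 to 12.7 CPM in sham 901 to 906 and 0.424 to 2.38 CPM in CKD. Sham mice 907 to 910 had 2.02 to 23.8 CPM of the liver markers and 3.09 to 59.7 CPM of the Mup genes.

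**Figure D5:**
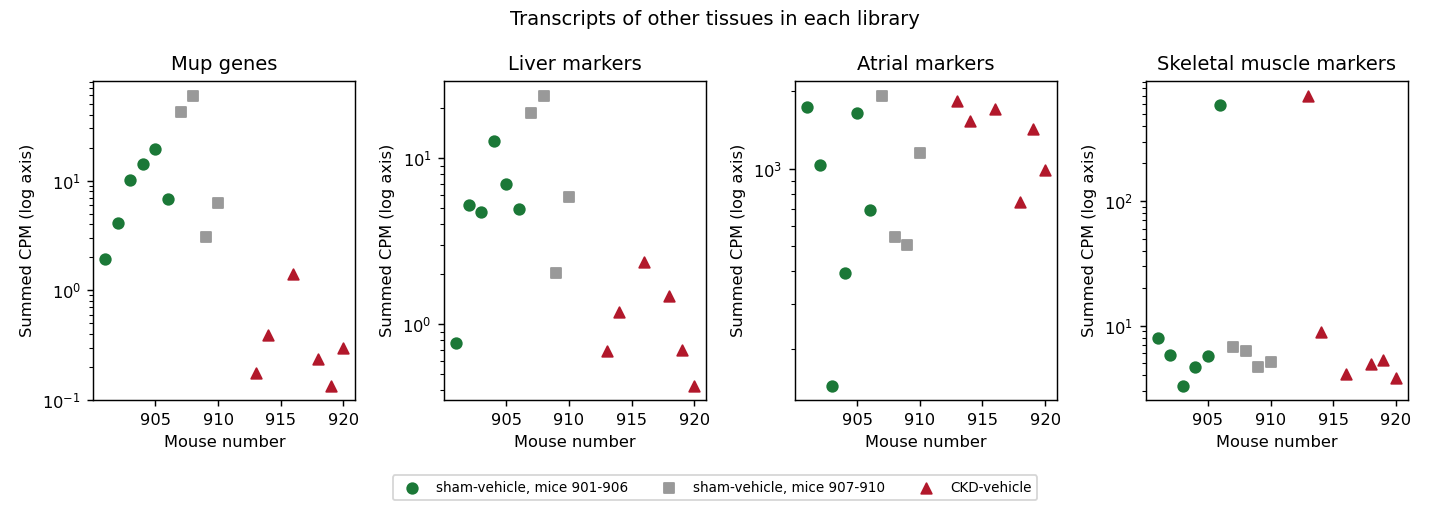
Summed CPM, on log axes, of the Mup genes and of liver, atrial and skeletal muscle markers in each vehicle library, by mouse number. Mup sums of the CKD mice (0.134 to 1.41 CPM) lie below those of all sham mice, and skeletal muscle markers stand out in mice 906 and 913.

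Other cell types overlapped between the groups. Fat markers ranged from 5.11 to 173 CPM in sham 901 to 906 and 2.76 to 194 in CKD, red cell markers from 16.3 to 38.5 and 5.80 to 52.0, and lymphocyte markers from 1.51 to 17.6 and 1.59 to 15.6. Macrophage markers ranged from 83.8 to 122.6 and 75.7 to 144 CPM, neutrophil markers from 1.53 to 2.42 and 1.86 to 3.92, and fibroblast markers from 314 to 604 and 287 to 617. Mesothelial markers ranged from 27.6 to 84.0 and 31.4 to 75.4 CPM. Of these, Wt1, a transcription factor of the mesothelium, was at 15.5 to 19.2 CPM in sham 901 to 906 and 11.2 to 14.9 CPM in CKD, with no overlap (-0.40 ± 0.11, edgeR adjusted p = 0.681).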

How the data were processed

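RNA from ventricular myocardium was sequenced on an Illumina instrument, per the labels' protocols. The deposited values are raw counts per gene, whole numbers in 1 table. The submitters' processing notes name FastQC 0.11.7, MultiQC 1.9, STAR 2.6.1d, Subread featureCounts 1.6.3 and build mm10. The annotation version, the use of strand and the treatment of reads with several matches are not given in the sources used here, so overlapping genes and gene copies (Mup, 7SL) are uncertain. The table has 45513 rows, of which 45465 identifiers were found in GENCODE M21 and 1532 had no count.

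Genes were tested with edgeR 4.0.16 in R 4.3.3 on TMM-scaled counts (filterByExpr with a minimum count of 10, robust quasi-likelihood F test, Benjamini-Hochberg adjustment over 24012 genes, threshold 0.05). The 16 vehicle libraries entered 1 fit of 3 group means, with 13 residual degrees of freedom. Errors of log2 differences are the difference divided by the square root of F. CPM use TMM-scaled library sizes, and log2 CPM a prior count of 2. The script was tested on simulated data. Library measures, Nppa and Nppb also had exact permutation tests.

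The sham mice, the gene lists and the tests were chosen with earlier results of these data known. Genes named were the 3 smallest p-values in each direction (mean log2 CPM not under 1), the natriuretic list, 6 hypertrophy genes and others of that list at an unadjusted p under 0.05, Cish and RP23-230H3.6, the clock lists, the 2 smallest p-values of each other list, and marker genes. Values of 2 genes that this rule names are not reported here. Further genes of the channel and fibrosis lists at an unadjusted p under 0.05 were named after their values were seen. Alternatives were DESeq2 1.42.0, limma 3.58.1 voom with sample weights, other scalings and filters, other sham mice or libraries in the fit, the clock score or 7SL share as covariate, and each library left out in turn. Leaving out mice 906 and 913 together was added after seeing the data. Nothing says whether mice of a group shared a cage, litter or day.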

Additional observations from a re-analysis of the deposited data

Results flagged for a closer look

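In groups of 6 libraries, 16 of 166 groups, over 83 measures, had a highest or lowest library that stood apart: its gap to the next library, divided by the whole range of the group, passed the critical value of 0.625. Chance gives about 1 in 20, here 8.3. The widest gaps were those of the skeletal muscle markers, 0.839 for CKD mouse 913 and 0.831 for sham mouse 906. Sham mouse 901 was the lowest for Ciart (0.766), Usp2 (0.719) and the liver markers (0.649) and the highest for Ace (0.651) and Nox4 (0.653). Sham mouse 906 was the highest for Bhlhe41 (0.652) and Cry2 (0.649), and sham mouse 905 for Corin (0.625). Among CKD mice, 914 was the highest for Cish (0.634) and Xirp1 (0.646), 916 for Pcsk6 (0.662) and Rora (0.692), 919 for Hlf (0.633) and 913 for Npas2 (0.655). Without CKD mouse 914 the log2 differences of Cish and Xirp1 were 0.73 and 0.43.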

How the results depend on the processing

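The count of genes past the threshold was 0 in 23 of 27 alternatives, each library left out in turn included, and the count of natriuretic and hypertrophy genes was 0 in all 27. The exceptions were 44 genes with DESeq2, 29 with sham mice 907 to 910, 1 (Cish, log2 difference 0.83) with all 10 sham mice and 1 (Cldn5, -1.07) with the 7SL share as covariate, and the cause was not tested. The number at an unadjusted p under 0.05 was 689 with all 28 libraries, 2494 with limma, 2234 with no filter, 888 without mice 906 and 913, and 896 to 2921 with 1 library left out (lowest without sham mouse 902, highest without sham mouse 905, 929 without CKD mouse 914 and 2329 without CKD mouse 919). Of 1830 values of 68 named genes, 1739 kept their sign. Part of those that turned were clock genes, which are described without a test, such as Per2 (0.34) with the clock score as covariate. For tested genes the values that turned follow, and the cause was not tested. Prkg1 was -0.0127 in the fit of 12 libraries, -0.0101 in that of 28, -0.0343 with sham mice 901 to 904, -0.0446 with upper quartile scaling, -0.0150 with at least 10 counts everywhere, -0.0309 without mice 906 and 913 and -0.0492 to 0.0645 with 1 library left out. Tnni1 was 0.197 with all sham mice, 0.661 with mice 907 to 910, 0.475 with 901 to 904, 0.0347 with 901 to 907, 0.350 with limma, 0.241 with the 7SL share, 0.238 without mice 906 and 913 and -0.428 to 0.414 with 1 library left out. Pde5a was 0.0589 with mice 907 to 910. Ankrd1 was -0.00557 with mice 901 to 907, -0.178 with the clock score and -0.0591 to 0.218 with 1 library left out. S100a9 was -0.0476 with the clock score, and Nox4 ran from -0.839 to 0.0249 with 1 library left out, the highest without sham mouse 901. The difference in genes with a count, 154, was -176.2 with all sham mice and -150.4 to 509.8 with 1 library left out. No paired analysis was possible because each mouse has its own number, shared by no other group. The SE of 0.46 for Nppb and for Nppa limits what 6 mice a group can show.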

Other observations

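Some genes outside the lists also had all 6 CKD libraries above all 6 sham libraries 901 to 906, and they are named after their values were seen. Of the 43 such genes, 41 had a mean log2 CPM not under 1, and of the 42 below, 14 did. Over all 24012 genes tested 14165 did. The part of the filter on low counts in these numbers was not tested. The endothelin A receptor Ednra, which mediates vasoconstriction, had a log2 difference of 0.37 ± 0.10 (33.7 against 26.1 CPM, edgeR adjusted p = 0.644), and DESeq2 called it. Mapk4, an atypical kinase, had 0.70 ± 0.15 (5.78 against 3.56 CPM, edgeR adjusted p = 0.352), also called by DESeq2. Nt5e, the ectoenzyme that makes adenosine, had 0.46 ± 0.12, and Kcnj11, a subunit of the ATP-sensitive potassium channel, 0.30 ± 0.10. Desmosomal Dsc2 had 0.49 ± 0.13 and the sarcomere-associated Cmya5 0.42 ± 0.13, at 596 against 445 CPM.

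Among genes with the CKD libraries below, the BMP mediator Smad1 had -0.38 ± 0.10 (16.2 against 21.1 CPM, edgeR adjusted p = 0.644) and the TGF-beta-induced factor Klf10 -0.48 ± 0.14 (13.9 against 19.5 CPM). The pancreatic amylase Amy2a5 had the largest positive difference among the genes named here, 4.84 ± 1.09, at 1.57 ± 2.65 CPM in CKD and 0.0506 ± 0.0345 CPM in sham 901 to 906 (SD, n = 6 each), with overlapping groups. It was named after its value was seen. With so low a level in sham 901 to 906, it passed the filter on low counts through other libraries. A higher value in CKD may thus have been favoured by the filter. Its SD in CKD is above its mean, and nothing is read from this gene.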
